A study of Mus musculus with 96 samples.

Results

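Messenger RNA levels of the heme-regulated kinase of red cell precursors and of 6 genes of the integrated stress response were measured in single cells of mouse bone marrow. The 7 genes were taken by symbol from a table of 24321 gene symbols: the kinase gene Eif2ak1, the transcription factor genes Atf4 and Ddit3, the phosphatase subunit gene Ppp1r15a, and the enzyme genes Asns, Shmt2 and Mthfd2. The series holds 96 single cells, all labelled as erythroid precursors from marrow of C57BL/6 mice of genotype Rpl11 +/lox, and it concerns red cell formation when 1 copy of Rpl11, a gene of the large ribosomal subunit, carries a lox allele. The stated range of stages begins at BFU-E, a committed progenitor, and ends at the basophilic erythroblast, which still has its nucleus. No wild-type cells, Cre allele, treatment, age or separate animals are named in the labels used here, so all cells count as 1 sample, and the values below are descriptions without a test between conditions. Cells were captured on a Fluidigm C1 chip, and levels are given in RPKM, mapped reads scaled to transcript length in kilobases and to 1000000 reads of the library.

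Eif2ak1 encodes HRI, a kinase that is held inactive by heme and is the main kinase of the translation factor eIF2alpha in erythroid cells. When heme is short, HRI phosphorylates eIF2alpha, most protein synthesis slows, and translation of the Atf4 messenger increases, so that globin is not made without heme. The ATF4 protein then raises transcription of genes for amino acid supply and of Ppp1r15a, whose product GADD34 directs a phosphatase back to eIF2alpha. Phosphorylation, translation and protein were not measured here, and an Atf4 messenger level does not report how much ATF4 protein was made.

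Promoters of the 7 genes were read from RefSeq sequence of build GRCm38.p6, from 250 bases before to 50 bases after the annotated start, and the expression files themselves were made on mm9. Both strands were searched for the letters TGATGNAA (the core of the element bound by ATF4 with C/EBP factors), TGACGTCA (the cAMP response element), CCAAT and GATAA (the core bound by GATA factors). TGATGNAA occurred in the promoter of Asns alone among the 7 genes, and TGACGTCA in that of Ppp1r15a alone, against 3.97% and 1.79% of 32851 promoters of the same length. Of 83 other genes of the pathway lists with a promoter in the table, 18 held TGATGNAA and 0 held TGACGTCA. The following 3 are shown because Asns and Ppp1r15a carry those matches and differed most from each other along Hba-a1, and because Eif2ak1 is the kinase. Asns lies at chr6:7693160-7693459 on the minus strand with TGATGAAA in capitals at bases 228 to 235, Ppp1r15a at chr7:45526219-45526518 on the minus strand with TGACGTCA in capitals at bases 239 to 246, and Eif2ak1 at chr5:143817542-143817841 on the plus strand with GATAA in capitals at bases 20 to 24. Each runs 5′ to 3′ on its gene's strand, and bases are counted from 1 at the 5′ end.
Asns: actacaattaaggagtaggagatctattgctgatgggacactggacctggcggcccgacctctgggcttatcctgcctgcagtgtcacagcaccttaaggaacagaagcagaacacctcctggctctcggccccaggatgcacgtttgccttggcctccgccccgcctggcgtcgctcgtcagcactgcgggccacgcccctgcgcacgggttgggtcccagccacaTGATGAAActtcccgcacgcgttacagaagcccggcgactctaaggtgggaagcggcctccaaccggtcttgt
Ppp1r15a: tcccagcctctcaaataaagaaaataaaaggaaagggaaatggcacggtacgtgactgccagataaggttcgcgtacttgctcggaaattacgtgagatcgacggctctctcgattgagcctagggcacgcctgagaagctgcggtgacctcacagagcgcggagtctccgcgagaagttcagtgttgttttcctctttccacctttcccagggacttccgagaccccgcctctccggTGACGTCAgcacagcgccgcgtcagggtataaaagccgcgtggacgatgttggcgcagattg
Eif2ak1: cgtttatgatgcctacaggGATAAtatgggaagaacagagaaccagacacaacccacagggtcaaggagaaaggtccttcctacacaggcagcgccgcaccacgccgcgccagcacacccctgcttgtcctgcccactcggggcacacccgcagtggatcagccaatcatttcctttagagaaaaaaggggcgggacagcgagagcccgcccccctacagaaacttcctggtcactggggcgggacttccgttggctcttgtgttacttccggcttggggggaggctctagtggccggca
GATAA occurred in 5 of the 7 promoters (Eif2ak1, Atf4, Ppp1r15a, Ddit3 and Asns), in 12 of the 83 other list genes and in 25.4% of all promoters. CCAAT occurred in 4 of 7 (Eif2ak1, Atf4, Ddit3 and Mthfd2), in 47 of the 83 and in 37.4% of all promoters. In Asns the GATAA match began at base 68 and in Ppp1r15a at base 62, apart from the capitals. A match is a run of letters in this window and not a measured binding site.

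Of the 96 cells, 69 listed at least 1000 genes at 1 RPKM or above. Of these, 12 held markers of another lineage (most often monocyte), 3 held too few erythroid markers, and 54 were kept (56.2% of all cells, exact Clopper-Pearson interval 45.7% to 66.4%, counting error only). Late progenitor markers such as Gata1, Epor and Tfrc were present in at least 50% of the kept cells for 9 of 10, and erythroblast markers such as Alas2 for 9 of 15. Early progenitor markers such as Kit and Cd34 reached that share for 0 of 9. Kept cells had to hold at least 3 late progenitor or 3 erythroblast markers. The filter thus partly sets these shares, and they do not place the labelled cells as a whole at a stage. All 6 mast cell and all 8 B cell markers were at 0 in the kept cells. Summed neutrophil markers reached at most 0.783 RPKM in the high-Hba-a1 and 132 RPKM in the low-Hba-a1 cells defined below, and monocyte markers 14.5 and 0.209 RPKM, against medians of 9820 and 5468 RPKM in the 12 cells set aside. The calls of the members were 5 lower and 0 higher with and without the 5 kept cells that had such a marker at 10 RPKM. The kept cells were ordered by their level of Hba-a1, an alpha globin gene whose reads may be shared with the near-identical Hba-a2, and split into 3 groups of 18 cells each, called the low-Hba-a1, mid-Hba-a1 and high-Hba-a1 cells. Hba-a1 had a median of 164947 RPKM in the low-Hba-a1 cells (3163 to 307302), 406066 in the mid-Hba-a1 cells (321044 to 439819) and 486366 in the high-Hba-a1 cells (443162 to 570277). The number of genes at 1 RPKM or more ran from 1003 to 2003 in the high-Hba-a1 cells and from 2571 to 5507 in the low-Hba-a1 cells, without overlap, and correlated with Hba-a1 over the 54 cells (Pearson's r -0.91, Spearman's rho -0.94). Hba-a1 level and gene number therefore cannot be told apart, nor can fewer messengers per cell and a larger globin share of the reads. Estimated depth had a median of 6198, 7419 and 7962, in units of 1000 reads or read pairs, in the low-Hba-a1, mid-Hba-a1 and high-Hba-a1 cells, so the cells with the fewest genes were not the shallowest. Rpl11 itself had a median of 362, 59.9 and 0 RPKM in the low-Hba-a1, mid-Hba-a1 and high-Hba-a1 cells, and without wild-type cells its levels do not check the genotype.

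Over all 54 cells together, Ppp1r15a was the gene of the 7 listed in the most cells and at the highest median, and the enzymes of serine and asparagine metabolism were listed in the fewest cells. In the low-Hba-a1 cells alone this order did not hold: Asns had the highest median (139 RPKM, beside 102 RPKM for Ppp1r15a), both were listed in 16 of 18 cells, and Atf4 and Ddit3 were in 17. At 1 RPKM or more, Ppp1r15a was found in 50 of the 54 cells (92.6%, 82.1% to 97.9%), Atf4 in 46 (85.2%, 72.9% to 93.4%) and Eif2ak1 in 40 (74.1%, 60.3% to 85.0%). Ddit3 was found in 35 cells (64.8%, 50.6% to 77.3%), Asns in 30 (55.6%, 41.4% to 69.1%), Mthfd2 in 24 (44.4%, 30.9% to 58.6%) and Shmt2 in 17 (31.5%, 19.5% to 45.6%). Intervals of genes next to each other in this order overlapped, whereas that of Ppp1r15a lay above those of Ddit3 and all 3 enzymes. All shares come from the same 54 cells, so this describes those cells and is not a test. At the median depth 1 RPKM stood for 5.75 reads (Ddit3) to 19.5 reads (Eif2ak1).

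**Figure D1:**
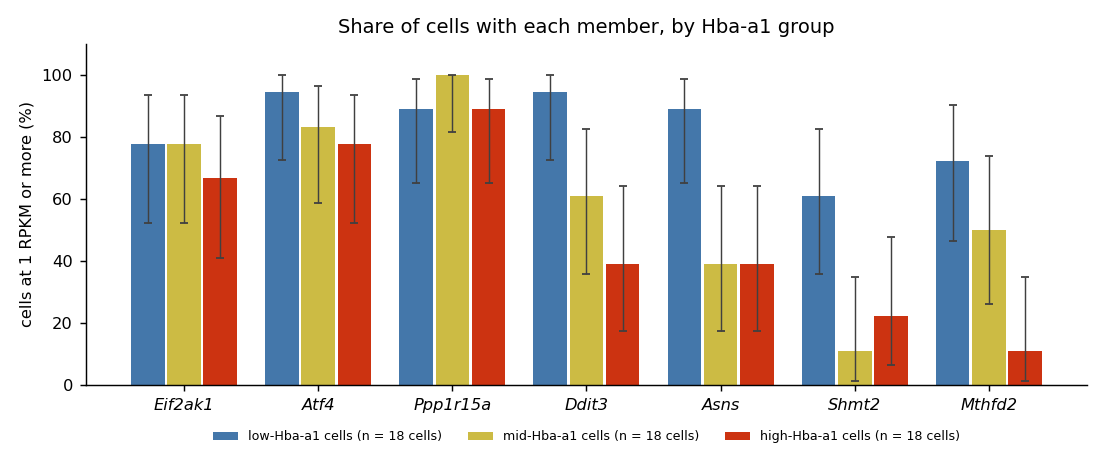
Share of cells at 1 RPKM or more for each gene (y axis, percent) in the low-Hba-a1, mid-Hba-a1 and high-Hba-a1 cells, 18 cells each, with error bars for exact Clopper-Pearson intervals at 95%. Ppp1r15a was listed in 16, 18 and 16 cells from low to high Hba-a1, while Ddit3 was listed in 17, 11 and 7 cells.

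A gene was called lower or higher when its mean log2(RPKM + 1) differed by at least 1 between groups and had 1 sign in each of the 3 run codes of the library descriptions. Between the high-Hba-a1 and low-Hba-a1 cells, 5 of the 7 genes were called lower (71.4%): Atf4, Ddit3, Asns, Shmt2 and Mthfd2. Over the 4144 genes that at least 10 kept cells listed at 1 RPKM, 71.6% were called lower and 0.989% higher, so the count of the 7 is that of genes in general. The median difference over all 4144 genes was -2.21, and -2.54 over the 7 genes, all of which had passed that filter. Relative to the median of all genes, Ppp1r15a lay 3.09 above and Eif2ak1 1.55 above, Atf4 lay 0.13 above, and Shmt2 (-0.34), Ddit3 (-0.71), Mthfd2 (-1.13) and Asns (-2.29) lay below. With the cells ordered by erythroblast markers in place of Hba-a1, 0 of the 7 and 22.4% of all genes were called lower, and Ppp1r15a, at 2.09, was called higher.

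**Figure D2:**
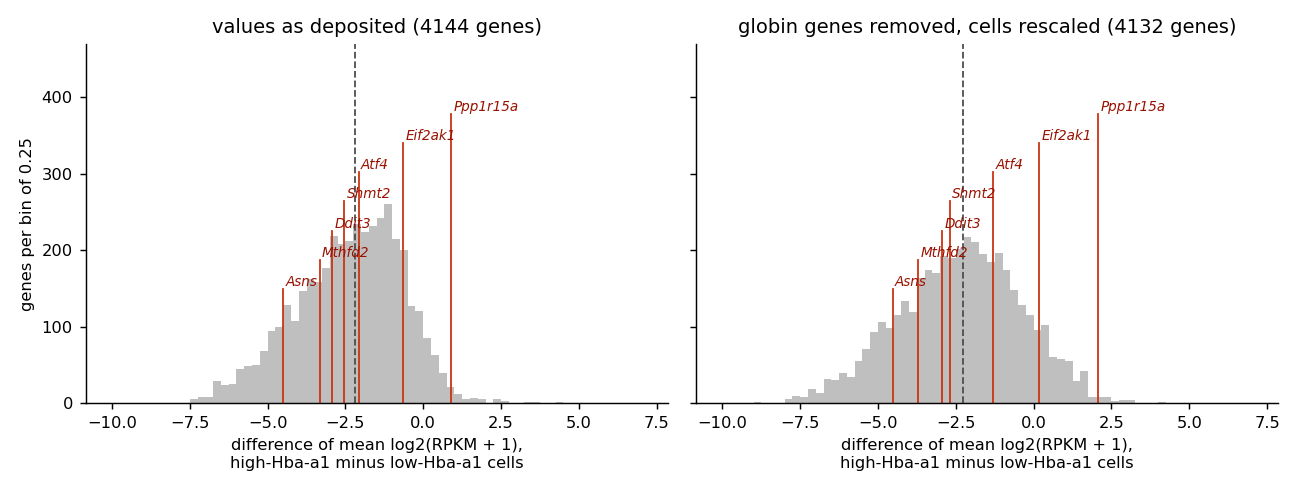
Histograms of the difference of mean log2(RPKM + 1), high-Hba-a1 minus low-Hba-a1 cells (x axis), over all genes in bins of 0.25 (y axis, genes), as deposited and after removal of globin genes with rescaling, and red lines mark the 7 genes at arbitrary heights while the dashed line is the median of all genes. Ppp1r15a stood at 0.89 and 2.07 in the upper tail in both, and Asns at -4.50 and -4.53 in the lower part.

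The kinase messenger was present at all levels of Hba-a1 without a steady direction. Eif2ak1 had 0.509, 33.8 and 198 RPKM as lowest, median and highest value in the low-Hba-a1 cells, 0, 73.2 and 175 RPKM in the mid-Hba-a1 cells, and 0, 8.17 and 167 RPKM in the high-Hba-a1 cells. The ranges overlapped almost wholly, with 14, 14 and 12 of 18 cells at 1 RPKM or more. Its mean log2 value was 3.36 ± 2.90 in the high-Hba-a1 cells and 4.03 ± 2.67 in the low-Hba-a1 cells (SD over 18 cells each), a difference of -0.66 that was not called and stood at -1.30, -1.51 and 1.39 within the run codes SCP-170608, SCP-1706080 and SCP-1706013. The difference was 0.17 after removal of globin genes and -1.35 after rescaling each cell to a total of 1000000, so no direction can be given. Of the 4144 genes 15.1% had a larger difference in the upward direction. The annotated exons of Eif2ak1 overlap those of Aimp2 on the opposite strand, and the strand setting of the counting is not given in the sources used here. Aimp2 was listed in 38 cells and correlated little with Eif2ak1 (r 0.04, 54 cells).

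Other kinases of eIF2alpha were scarcely listed. Eif2ak2, the kinase PKR that responds to double-stranded RNA, was at 1 RPKM or more in 10 of the 54 cells, and Eif2ak4, the amino acid sensor GCN2, in 3 cells. Eif2ak3, the endoplasmic reticulum kinase PERK, was listed in 0 of 54 cells, meaning only that it did not reach 1 RPKM there, since the ribosomal protein gene Rpl11 was itself at 0 in 15 of the 54 cells. Eif2ak1, in 40 cells, was thus the only 1 of the 4 found in most kept cells.

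Atf4, the factor whose translation rises when eIF2alpha is phosphorylated, was listed in most cells of each group and at lower levels in the cells with most Hba-a1. It had 0.714, 77.2 and 281 RPKM as lowest, median and highest value in the low-Hba-a1 cells, 0, 92.9 and 308 RPKM in the mid-Hba-a1 cells, and 0, 22.8 and 91.9 RPKM in the high-Hba-a1 cells. No high-Hba-a1 cell reached 100 RPKM, yet the ranges overlapped. The mean log2 value was 3.63 ± 2.29 in the high-Hba-a1 cells and 5.71 ± 2.27 in the low-Hba-a1 cells (SD over 18 cells each), a difference of -2.08 that was called lower, close to the -2.21 of all genes. Within run codes SCP-170608, SCP-1706080 and SCP-1706013 it was -0.02, -1.78 and -5.44, so the call rests on a near-zero value in the first of these. It was -1.29 and not called after removal of globin genes. With only the 24 cells with at least 2000 genes, regrouped as 8 against 8 by Hba-a1, it was 1.38. Those 24 held all 18 low-Hba-a1 cells, some of them in the upper 8, so this is another contrast. Between the high-Hba-a1 and mid-Hba-a1 cells the difference was -1.66 and called lower, where 17.8% of all genes were called lower.

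Ddit3, which encodes CHOP, a factor linked to cell death under prolonged stress, was listed in fewer cells and at a lower median in each group in turn. It had 0, 57.7 and 425 RPKM in the low-Hba-a1 cells, 0, 3.73 and 221 RPKM in the mid-Hba-a1 cells, and 0, 0 and 148 RPKM in the high-Hba-a1 cells, as lowest, median and highest value. It was at 1 RPKM or more in 17, 11 and 7 of 18 cells, although the 7 high-Hba-a1 cells that listed it had 102 RPKM at the median and the 17 low-Hba-a1 cells that did had 63.8 RPKM. The mean log2 value was 2.42 ± 3.24 in the high-Hba-a1 cells and 5.34 ± 2.27 in the low-Hba-a1 cells (SD over 18 cells each), a called difference of -2.92. Exons of Ddit3 overlap those of Mars, the methionyl-tRNA synthetase gene, on the opposite strand. Mars was listed in 33 cells, in 0 of them without Ddit3, and Ddit3 without Mars in 2, so reads from this gene pair cannot be told apart and every Ddit3 value here carries that limit.

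Ppp1r15a, the stress-induced subunit that recruits protein phosphatase 1 to eIF2alpha, was listed in at least 16 of 18 cells in each group. It had 0, 102 and 398 RPKM as lowest, median and highest value in the low-Hba-a1 cells, 24.6, 339 and 852 RPKM in the mid-Hba-a1 cells, and 0, 245 and 989 RPKM in the high-Hba-a1 cells. All 18 mid-Hba-a1 cells listed it (81.5% to 100%), and 16 of 18 did at either end. Its mean log2 value was 7.16 ± 2.89 in the high-Hba-a1 cells and 6.27 ± 2.49 in the low-Hba-a1 cells (SD over 18 cells each). That difference of 0.89 was not called, ranked 51 of 4144 genes from the top, and was 1.34, 0.57 and 3.00 within run codes SCP-170608, SCP-1706080 and SCP-1706013. It was 2.07 and called higher after removal of globin genes, where 2.81% of all genes were called higher and 65.4% lower, and -0.15 after rescaling each cell to the same total, so its absolute direction depends on the scaling while its place above the median of all genes does not (4.34 and 2.30 above). Between the mid-Hba-a1 and low-Hba-a1 cells the difference was 1.74 and called higher, as were 1.35% of all genes, while 3 members were called lower, beside 60.8% of all genes. With the 6 kept cells under 100000 RPKM of Hba-a1 left out and the rest regrouped, the high-Hba-a1 minus low-Hba-a1 difference was 0.13.

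**Figure D3:**
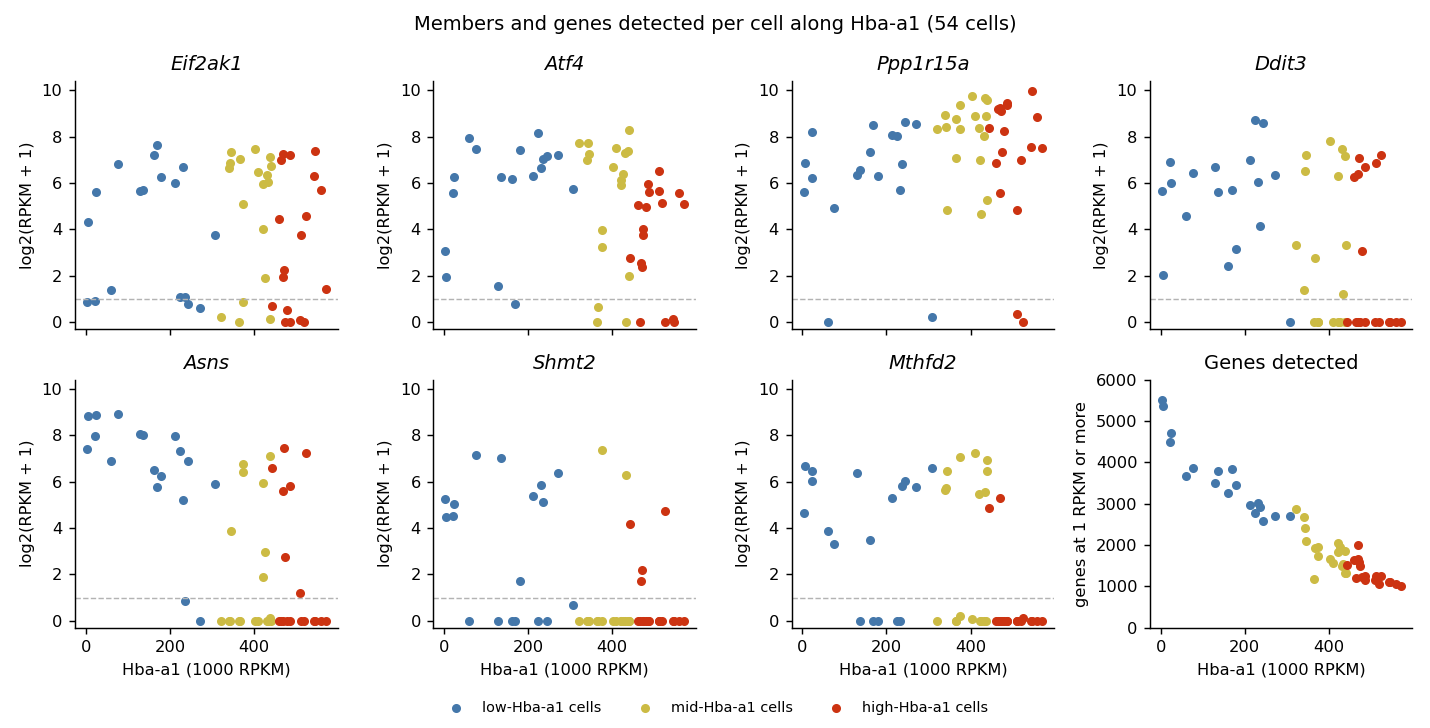
Level of each of the 7 genes, log2(RPKM + 1), and number of genes at 1 RPKM or more (last panel) against Hba-a1 in units of 1000 RPKM, 1 point per cell for 54 cells, with a dashed line at 1 RPKM. Asns runs from high values at low Hba-a1 to mostly 0, Ppp1r15a is at 1 RPKM or more in 50 of the 54 cells, and the number of genes is lower at higher Hba-a1.

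The other phosphatase genes gave different values. The constitutive partner gene Ppp1r15b was listed in 13, 6 and 7 of 18 cells from low to high Hba-a1, and Ppp1r15a exceeded it in 51 of the 54 cells. The catalytic subunit gene Ppp1ca had a median of 50.2 RPKM in the high-Hba-a1 and 581 RPKM in the low-Hba-a1 cells (difference -4.91, called), and Ppp1cc 0 and 89.5 RPKM (-4.35, called). Ppp1cb, with 4.89 and 25.4 RPKM, differed by -1.15 and was not called.

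Asns, the asparagine synthetase and a textbook ATF4 target, was the member most tied to low Hba-a1. It had 0, 139 and 477 RPKM as lowest, median and highest value in the low-Hba-a1 cells, 0, 0 and 137 RPKM in the mid-Hba-a1 cells, and 0, 0 and 172 RPKM in the high-Hba-a1 cells. The mean log2 value was 2.03 ± 2.98 in the high-Hba-a1 cells and 6.53 ± 2.48 in the low-Hba-a1 cells (SD over 18 cells each), a called difference of -4.50. The difference was 0.09 between the high-Hba-a1 and mid-Hba-a1 cells, and -4.58 between the mid-Hba-a1 and low-Hba-a1 cells, where it was called lower, as were 60.8% of all genes. The 6 cells with the least Hba-a1 had 118 to 477 RPKM of Asns, and the difference was -2.66, still called, without them and with the rest regrouped.

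Shmt2 and Mthfd2, mitochondrial enzymes that pass the carbon of serine into the folate pool, were listed in fewer cells. Shmt2 had 0, 21.6 and 139 RPKM in the low-Hba-a1 cells, 0, 0 and 163 RPKM in the mid-Hba-a1 cells, and 0, 0 and 25.6 RPKM in the high-Hba-a1 cells, as lowest, median and highest value. Mthfd2 had 0, 31.2 and 99.4 RPKM in the low-Hba-a1 cells, 0, 21.8 and 150 RPKM in the mid-Hba-a1 cells, and 0, 0 and 38.1 RPKM in the high-Hba-a1 cells. Shmt2 was thus mostly at 0 from the mid-Hba-a1 cells on (11, 2 and 4 of 18 cells), whereas Mthfd2 was listed in 9 of 18 mid-Hba-a1 cells and in 2 of the highest. The called difference of Shmt2 between the high-Hba-a1 and low-Hba-a1 cells was -2.54, and -1.47 without the 6 cells under 100000 RPKM of Hba-a1. That of Mthfd2 was -3.33, of which -2.58 lay between the high-Hba-a1 and mid-Hba-a1 cells, where Atf4 and Mthfd2 were the 2 members called lower, beside 17.8% of all genes, and 0 members were called higher, beside 0.434%.

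Over the 54 cells, Pearson's r with the log2 Hba-a1 level was -0.57 for Asns, -0.46 for Shmt2, -0.38 for Mthfd2 and -0.26 for Ddit3. It was -0.03 for Atf4, 0.06 for Eif2ak1 and 0.18 for Ppp1r15a. With the number of genes per cell, the values were 0.65 for Asns, 0.49 for Shmt2, 0.43 for Mthfd2, 0.35 for Ddit3, 0.16 for Atf4, 0.06 for Eif2ak1 and -0.19 for Ppp1r15a. By Pearson's r each gene thus leaned at least as far with gene number as with Hba-a1, whereas Spearman's rho of Atf4 was -0.33 with Hba-a1 and 0.29 with gene number. The cells share capture and chemistry, so these are descriptions. Estimated depth differed among the cells. Spearman's rho with depth was -0.49 for Shmt2, 0.39 for Ppp1r15a, -0.28 for Asns and 0.25 for Eif2ak1. For Shmt2, Ppp1r15a and Eif2ak1 it was larger in size than rho with Hba-a1 (-0.42, 0.26 and -0.08). For the other members it was smaller. The part of depth in these correlations was not tested.

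**Figure D4:**
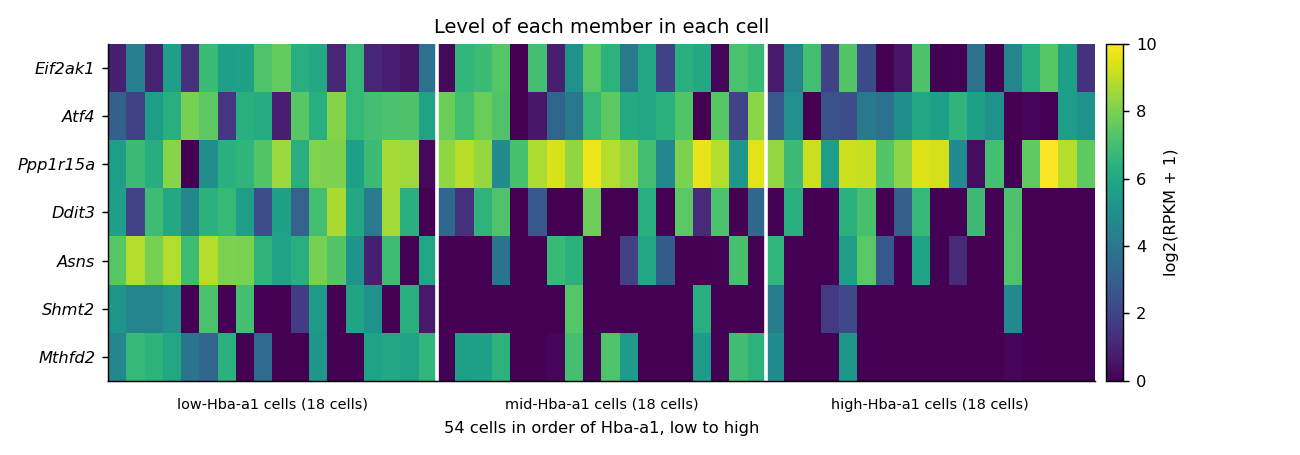
Level of the 7 genes (rows) in each of 54 cells (columns, ordered by Hba-a1 from low to high), as log2(RPKM + 1) in colour, with white lines between the groups of 18 cells. The Asns, Shmt2 and Mthfd2 rows are mostly at 0 in the high-Hba-a1 cells, and Ppp1r15a is at 1 RPKM or more in 50 of the 54 cells.

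Co-detection differed in the same way. The median number of the 7 genes at 1 RPKM or more was 6, 4.5 and 3 per cell in the low-Hba-a1, mid-Hba-a1 and high-Hba-a1 cells, and all 7 were found together in 5 cells, of which 4 were low-Hba-a1 cells and 1 a high-Hba-a1 cell. All 3 enzymes were together in 6, 1 and 2 of the low-Hba-a1, mid-Hba-a1 and high-Hba-a1 cells, and none of the 3 in 0, 6 and 10 cells. Ppp1r15a without any of the enzymes was seen in 15 cells, 0 of the low-Hba-a1, 6 of the mid-Hba-a1 and 9 of the high-Hba-a1 cells. Atf4 was accompanied by at least 1 enzyme in 17, 11 and 7 cells. With the 24 cells of at least 2000 genes alone, Ppp1r15a without any enzyme was seen in 1 cell in place of 15. That cut kept all 18 low-Hba-a1 cells, which held 0 of the 15, and few cells of the other groups. The lower count therefore cannot separate gene number from Hba-a1 group, and the part of gene number was not tested.

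Among pairs, Asns was found in 28 of the 46 cells with Atf4 (60.9%, 45.4% to 74.9%) and in 2 of the 8 without it (25.0%, 3.19% to 65.1%), and these intervals overlap. In the low-Hba-a1, mid-Hba-a1 and high-Hba-a1 cells with Atf4, Asns was found in 88.2%, 46.7% and 42.9%. In those without Atf4 it was found in 100%, 0% and 25.0%, of only 1, 3 and 4 cells. Mthfd2 was found in 12 of the 17 cells with Shmt2 (70.6%, 44.0% to 89.7%) and in 12 of the 37 without it (32.4%, 18.0% to 49.8%), which overlap as well. In the same order of groups, Mthfd2 was found in 72.7%, 100% and 50.0% of the 11, 2 and 4 cells with Shmt2. It was found in 71.4%, 43.8% and 0% of the cells without Shmt2. The pooled shares thus mix groups that list these genes unequally often. Ppp1r15a was found in 36 of the 40 cells with Eif2ak1 (90.0%, 76.3% to 97.2%) and in all 14 without it (76.8% to 100%). Pairs of levels correlated weakly over the 54 cells. The highest Pearson's r were 0.42 for Asns with Shmt2, 0.36 for Shmt2 with Mthfd2 and 0.35 for Ddit3 with both Atf4 and Asns, and the lowest was -0.28 for Ppp1r15a with Asns. Atf4 with Ppp1r15a stood at -0.06 and Atf4 with Asns at -0.01.

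The balance of Ppp1r15a over Atf4 differed by Hba-a1. Ppp1r15a exceeded Atf4 in 11, 16 and 15 of 18 of the low-Hba-a1, mid-Hba-a1 and high-Hba-a1 cells, and the median difference of their log2 values within a cell was 0.916, 1.73 and 3.40. Both genes come from the same library in each cell, so the scaling of a cell cancels for levels well above 1 RPKM. Atf4 was at 0 in 3 of the high-Hba-a1 cells, where this does not hold. Its difference of -2.08 was close to the median of all genes, -2.21, so the wider balance is not particular to Atf4. In the 24 cells with at least 2000 genes, regrouped as 8 against 8, that difference was 1.38. All 18 low-Hba-a1 cells were among these 24, so the contrast is not the same. Ppp1r15a also exceeded Eif2ak1 in 46 and Ddit3 in 44 of the 54 cells.

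**Figure D5:**
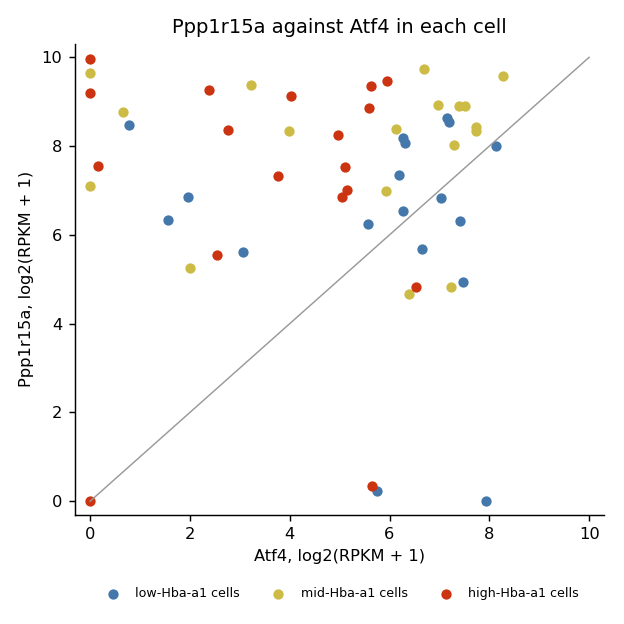
Ppp1r15a (y axis) against Atf4 (x axis), both as log2(RPKM + 1), 1 point per cell for 54 cells coloured by Hba-a1 group, with the line of equal levels. Ppp1r15a lay above the line in 42 cells, and 15 of the 18 high-Hba-a1 cells were among them.

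Wider lists of the pathway held 116 symbols, of which 115 were in the table and 67 passed the filter of 10 cells. Several passed mainly through the low-Hba-a1 cells. From low to high Hba-a1, Tars was listed in 10, 0 and 1 cells, Eif2b1 in 10, 2 and 0, and Hspa9 in 12, 0 and 0. For such genes the filter largely set the call of lower, so the counts of tested genes are no result about the lists. The same filter was applied to all 4144 genes. Of these 67, 52 (77.6%) were called lower and 0 higher in the high-Hba-a1 against the low-Hba-a1 cells, beside 71.6% and 0.989% of all 4144 genes, with a median difference of -2.71 beside -2.21 for all genes. All 8 of 8 tested eIF2 and eIF2B subunit genes were called lower, such as Eif2s1, the eIF2alpha gene that HRI acts on, with a median of 0 RPKM in the high-Hba-a1 cells and 111 RPKM in the low-Hba-a1 cells (-4.56). All 16 tested cytosolic aminoacyl-tRNA synthetase genes were called lower, among them Farsb (-4.68), Sars (-4.55), Hars (-4.36) and Eprs (-4.09). All 6 tested genes of HRI regulators and chaperones were called lower, and Hspa8, whose product binds HRI together with Hsp90 in rabbit reticulocytes, with 0.0296 RPKM in the high-Hba-a1 cells and 709 RPKM in the low-Hba-a1 cells, differed by -7.42. Hsp90ab1 differed by -6.86, Hsp90aa1 by -3.78 and its kinase partner Cdc37 by -3.29. Hsp90aa1 was still listed in 15 of 18 high-Hba-a1 cells, against 2 for Hsp90ab1.

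The counts of smaller lists that follow stand beside 71.6% of all genes called lower, and the same limit of the filter holds for them. Of 4 tested serine and one-carbon genes 4 were called lower, including the thymidylate synthase gene Tyms (-3.37), which was still listed in 13 of 18 high-Hba-a1 cells. Mthfd1, listed in 9 cells, did not pass the filter and had 0 RPKM in the high-Hba-a1 cells and 3.92 RPKM in the low-Hba-a1 cells at the median. Of 3 tested amino acid synthesis genes 3 were called lower, with Glul at -2.87 beside Asns. Among 7 tested amino acid transporters 2 were called lower, Slc38a2 (-1.72) and Slc7a11 (-1.32), whereas Slc3a2 (-1.30) and Slc7a1 (-0.93) were not called. The cystine carrier Slc7a11 was listed in 17, 15 and 14 of 18 cells from low to high Hba-a1, at medians of 7.80, 5.35 and 3.01 RPKM.

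Of the ATF4 effector list, 7 of 11 genes (Chac1, Ddit4, Vldlr, Stc2, Gpt2, Fgf21 and Gdf15) were under 1 RPKM in all 54 cells. Of the effectors that passed, Eif4ebp1, a translation repressor, differed by -5.66 and was called lower, and Gadd45a by -0.90 and was not. Among the transcription factors Atf3 and Nupr1 were under 1 RPKM in all 54 cells, Trib3 was listed in 1 cell, and Nfe2l2, the oxidative stress factor NRF2, differed by -1.85 and was called lower. All 4 tested endoplasmic reticulum genes were called lower, Hspa5 (-4.19), Calr (-2.47), Hsp90b1 (-1.70) and Dnajc3 (-1.65). Among all genes 71.6% were called lower, with a median difference of -2.21, so such counts in short lists are near those of genes in general. Of 5 tested mitochondrial stress genes 3 were called lower, Hspe1 (-4.95), Clpp (-4.38) and Hspd1 (-3.09), and Pck2 (-1.55) was not.

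The genes whose levels over the 54 cells were most like those of each member came from different classes. They are the top 5 of 4144 genes, and how high the top values reach without a shared biology was not tested. Asns itself had an r of 0.65 with the number of genes per cell. For Asns they were the prefoldin gene Pfdn1 (Pearson's r 0.76), the replication factor gene Rfc2 (0.75), Diablo (0.72), Dhx9 (0.70) and Gm10653 (0.69), and medians of Pfdn1, Diablo and Dhx9 were 0 in the mid-Hba-a1 and high-Hba-a1 cells. For Ddit3 they were the overlapping Mars (0.62), D1Ertd622e (0.60), Polr2d (0.54), 6230400D17Rik (0.54) and Mir3077 (0.52). For Atf4 they were the thymidine kinase gene Tk1 (0.51), Syf2 (0.49), Rbm3os (0.48), and Oaz1 with its pseudogene Oaz1-ps (0.47 each), which may share reads. Likeness was weaker for the other members that most cells listed. For Ppp1r15a the genes were the erythroid tetraspanin gene Tspan33 (0.47), Rsad2 (0.46), the heme synthesis gene Urod (0.42), the membrane skeleton gene Epb4.1 (0.42) and Fam220a (0.42). For Eif2ak1 they were the superoxide dismutase gene Sod2 (0.47), Ifrd2 (0.46), Ube2l6 (0.40), Samd14 (0.40) and Mgll (0.39).

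In the 12 cells set aside with markers of another lineage, the members stood in another order. Atf4 was listed in 9, Ddit3 in 8, Shmt2 in 7, Ppp1r15a in 6, Eif2ak1 in 5, Asns in 3 and Mthfd2 in 3 of these cells. At the median, Ppp1r15a had 259 RPKM in the 54 kept cells and 1.76 RPKM in the 12 cells, Eif2ak1 had 27.7 RPKM in the kept cells and 0.566 RPKM in the 12, and Shmt2 had 0 RPKM in the kept cells and 37.6 RPKM in the 12. The interval of the Ppp1r15a share in the kept cells lay above that in the 12 cells (50.0%, 21.1% to 78.9%), while for Shmt2 the intervals overlapped (58.3% of the 12, 27.7% to 84.8%). The 12 cells had a median of 4156 genes and the kept cells 1894. The low-Hba-a1 cells, with 3474 genes at the median, were nearer to the 12 in gene number. They listed Shmt2 in 11 of 18 cells (61.1%, 35.7% to 82.7%) at a median of 21.6 RPKM, and Ppp1r15a in 16 at 102 RPKM.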

How the data were processed

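RNA of 96 single cells was amplified with SMART-Seq chemistry and made into Nextera XT libraries, per the labels' protocols. The authors deposited RPKM values, and TopHat2 2.0.9 with genome build mm9 is named in the submitters' processing notes, and further steps are not given in the labels used here. The deposited RPKM were taken as they stand, and no count test was used. The table had 34899 transcript rows, and each of the 24321 symbols took its highest transcript (5556 symbols had more than 1 row). Depth was estimated from the steps between low RPKM values and transcript lengths (found for 96.5% of transcripts), checked on simulated data, in reads or read pairs. Kept cells had at least 1000 genes at 1 RPKM, at least 3 late progenitor or 3 erythroblast markers at 10 RPKM, and no other lineage with both at least 3 and at least 50% of its markers. Genes that at least 10 kept cells listed at 1 RPKM were compared as the difference of mean log2(RPKM + 1), which understates differences of low genes. The call rule used run codes with at least 3 cells in both groups, taken from the library descriptions, since titles give 1 code to all cells. Doublets were not called, given the small number of cells.

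Amplified reads have no molecular identifiers, so intervals (95%) cover counting error only. Overlap or separation of 2 intervals is not a test of a difference. At the median depth the floor of 3 reads was 0.154 RPKM (Eif2ak1) to 0.522 RPKM (Ddit3). The members, marker lists and pathway lists were chosen with earlier results of these data known. Genes named were the members, Hba-a1 and Rpl11, up to 4 genes per pathway list with the largest difference among those listed in at least 50% of the high-Hba-a1 or low-Hba-a1 cells, and the 5 genes most correlated with each member listed in at least 50% of cells. Some genes that this rule names are not reported here. Other list genes given only as counts of cells were named after their values were seen. Alternatives were other pseudocounts, scalings, transcript sums, cell filters, orderings, call rules and single run codes. Motif positions come from RefSeq promoters of GRCm38.p6, and no mm9 annotation was used. Python 3.11.15, pandas 2.3.3, NumPy 2.4.6, SciPy 1.17.1 and matplotlib 3.10.9 were used.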

Additional observations from a re-analysis of the deposited data

Results flagged for a closer look

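The 27 cells with under 1000 genes entered no comparison, and 6 of the 7 members were still listed in some of them at 1 RPKM or more. Ppp1r15a was listed in 13 of the 27, Eif2ak1 in 7, Atf4 in 5, Ddit3 in 4, Mthfd2 in 3 and Asns in 1. Shmt2 was listed in 0 of 27. These cells had a median of 485 genes and 150695 RPKM of Hba-a1, and Ppp1r15a led the order of the members there as it did in the kept cells.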

How the results depend on the processing

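Over 20 settings, the difference between the upper and lower group of cells stayed below 0 for Ddit3, Asns and Shmt2. It was above 0 in 18 for Ppp1r15a (-0.75 to 3.64). Several settings regrouped the cells, among them the order by erythroblast markers. The call by size alone and the filter of at least 1 cell left these differences as reported by construction. Of 130 values for whole comparisons, 105 were equal to the reported value or within 1.5 times of it. The cause of the others was not tested beyond what each setting changes. Some of the 105 could not change. The count of members with a negative r with Hba-a1 does not depend on grouping, order, call rule or gene filter. Calls of members could not change with the filter of at least 1 cell, since all members had already passed. The 105 is therefore not a measure of stability. The members called lower, 5 as reported, numbered 1 with all cells with enough genes kept, beside 67.7% of all genes. They numbered 3 with at least 2000 genes per cell (71.8%) and 0 when ordered by erythroblast markers (22.4%). Within run codes SCP-170608 and SCP-1706013 alone they numbered 2 and 1, beside 73.6% and 70.2% of all genes. These counts take only members listed in at least 10 of the 15 and 14 cells there. Without that filter, Ddit3, Asns and Shmt2 were called lower within SCP-170608, and all 5 reported members within SCP-1706013. Members called higher, 0 as reported, numbered 2 with all cells with enough genes and with at least 2000 genes, beside 3.01% and 4.09% of all genes. They numbered 1 with globin genes removed, marker-poor cells kept, at least 500 genes, Hba-a1 at 300000 RPKM or more against under 100000, erythroblast marker order, and in each of run codes SCP-170608 and SCP-1706013, beside 1.29% to 5.95% of all genes in these settings. With at least 2000 genes, 0 run codes had enough cells in both groups, so calls there rest on size alone. The 24 cells of that setting held all 18 low-Hba-a1 cells, some of them in the upper group of 8. Its differences are therefore not those between the high-Hba-a1 and low-Hba-a1 cells. Only 1 run code counted with Hba-a1 at 300000 RPKM or more against under 100000. In the settings without cells under 100000 RPKM, without marker-bearing cells or without the shallowest cell, 2 counted. All genes called lower, 71.6% as reported, came to 47.5% with a pseudocount of 10 RPKM, 22.4% by erythroblast marker order and 37.7% with all genes detected in at least 1 cell. Pathway list genes called lower, 52 as reported, came to 14 by erythroblast marker order and 25, 14 and 11 within run codes SCP-1706080, SCP-170608 and SCP-1706013 alone, where fewer genes passed the filter. Eif2ak1, -0.66 and not called as reported, was above 0 in 6 settings: 1.29 and called with all cells with enough genes, 0.17 with globin genes removed, 0.67 with at least 2000 genes, 0.74 with Hba-a1 at 300000 RPKM or more against under 100000, 0.53 by erythroblast marker order and 0.84 within run code SCP-1706013. Ppp1r15a was below 0 on rescaling to a total of 1000000 (-0.15) and within run code SCP-1706080 (-0.75). Signs also turned for Atf4 (1.38, at least 2000 genes, and 1.22, run code SCP-170608) and Mthfd2 (0.45, at least 2000 genes). The values at 2000 genes come from the changed groups named above. Members with a negative r with Hba-a1 were 1 in place of 5 with all cells with enough genes. At 10 RPKM, 3 in place of 5 members were in at least 50% of cells. Cells with Ppp1r15a and no enzyme were 1 in place of 15 with at least 2000 genes, which left few cells outside the low-Hba-a1 group. Cells with all 3 enzymes were 4 in place of 9 without the cells under 100000 RPKM of Hba-a1. That setting was chosen after seeing the data. So were those without kept cells with a neutrophil or monocyte marker and without the shallowest kept cell. No paired analysis was possible because all cells carry 1 group label. The 1 sample and the unnamed animals limit every comparison to these cells.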
